A study of Rattus norvegicus with 8 samples.

Results

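The aryl hydrocarbon receptor (AHR) pathway was described through 8 genes: Ahr, its partner Arnt, the repressors Ahrr and Tiparp, and the target genes Cyp1a1, Cyp1a2, Cyp1b1 and Nqo1. They were found by symbol among the 30562 genes of a deposited table of read counts from rat liver, and each symbol had 1 row. Of the 8 genes, 7 passed the filter on low counts and were tested among 16591 genes, and Ahrr did not pass. RNA was sequenced from 8 livers, each from a separate adult male Wistar rat per the labels, with 2 rats in each of 4 groups. Rats of the Atorvastatin plus HCB group were labelled as given both agents. Rats labelled HCB were gavaged 3 times weekly over 30 days with hexachlorobenzene, a chlorinated fungicide that persists in tissue, at 100 mg/kg per gavage. Rats labelled Atorvastatin received this inhibitor of cholesterol synthesis in drinking water, and Control rats received vehicle, which for HCB was water with Tween-20. The labels give the atorvastatin dose as 5 mg/kg per day and also as 5 mg per rat per day in 20 mL of water, which for a rat of 160 g would be 31.25 mg/kg, so the dose taken is uncertain. All rats weighed 160 g at the start and were killed on day 37, and 2 of the 5 rats of each group were sequenced. P-values therefore measure the spread between these few rats. The model pools that spread over the 4 groups and moderates it by the spread of other genes.

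AHR is a transcription factor that waits in the cytoplasm in a complex with the chaperone HSP90, the co-chaperone p23 (Ptges3) and the kinase SRC. A bound ligand, such as a dioxin, a planar chlorinated compound or a tryptophan product, sends it to the nucleus, where it pairs with ARNT and binds xenobiotic response elements. In liver its best known targets are the cytochrome P450 genes of the CYP1 family, whose enzymes oxidise polycyclic compounds, and Nqo1, a quinone reductase. AHRR competes for ARNT and TIPARP modifies AHR, so both close a negative feedback loop.

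The libraries did not match their labels in all respects, and this bears on every comparison of HCB. The summed level of 4 Y-linked genes, in counts scaled to a normalised library size of 1e6 reads (CPM), was 135 to 217 in the 4 HCB-labelled libraries, against 0.900 to 1.90 in the 4 libraries labelled as unexposed, although all rats were labelled male. The Y-linked helicase gene Ddx3 averaged 76.1 ± 14.2 CPM in HCB-labelled libraries, against 0.291 ± 0.237 CPM in unexposed ones (SD, n = 4 each). The summed level of 5 genes typical of fetal liver was 148 to 333 CPM in HCB-labelled libraries, against 37451 to 51247 CPM in unexposed ones, and Afp, the fetal serum protein, averaged 92.8 ± 35.8 CPM in HCB-labelled libraries against 19298 ± 9136 CPM in unexposed ones. All 7 erythroid genes and all 6 neutrophil genes tested were also lower in the HCB-labelled libraries (edgeR, average effect of HCB). Of all genes tested 25.3% were lower in that comparison. The hepatocyte list, which includes albumin, summed to 109332 to 176629 CPM in HCB-labelled libraries and 76449.8 to 146485 CPM in unexposed ones, so all were rich in hepatocyte RNA. The effect of HCB and these differences cannot be told apart, and no HCB comparison can be made without the 4 unexposed libraries. In bulk tissue, fewer cells of a type and less RNA per cell cannot be told apart either. Assigned reads ranged from 29.4 M to 52.0 M per library (M, units of 1e6), and the share of reads outside exons was highest in Atorvastatin replicate 1, at 34.0%, and Control replicate 1, at 27.7%.

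**Figure D1:**
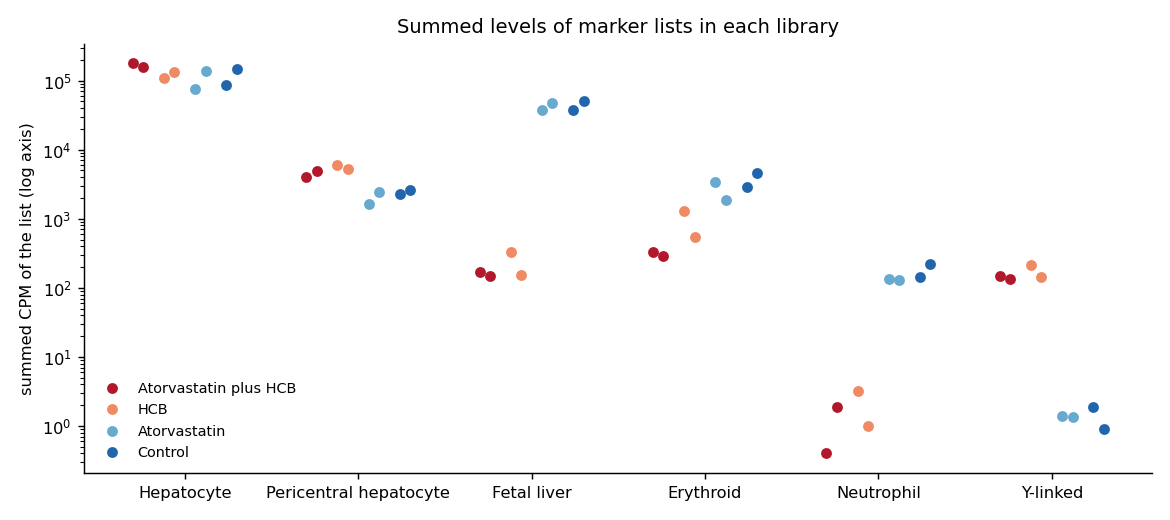
Summed CPM (log axis) of 6 marker lists in each of the 8 libraries, with points coloured by group. Fetal liver genes sum to at most 333 CPM in HCB-labelled libraries and at least 37451 CPM in unexposed ones, and Y-linked genes to at least 135 CPM in HCB-labelled libraries and at most 1.90 CPM in unexposed ones.

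The stretch around the start of each gene is shown for the targets that differed between groups and for the targets that hold most copies of the AHR motif. RefSeq promoters on the GRCr8 build, 250 bases before to 50 after the start, were found for 7 of the 8 genes, and Cyp1a1 is named only. Capitals mark the core of the xenobiotic response element, GCGTG, on either strand.
Cyp1a2 (chr8:66978100-66978399, minus strand): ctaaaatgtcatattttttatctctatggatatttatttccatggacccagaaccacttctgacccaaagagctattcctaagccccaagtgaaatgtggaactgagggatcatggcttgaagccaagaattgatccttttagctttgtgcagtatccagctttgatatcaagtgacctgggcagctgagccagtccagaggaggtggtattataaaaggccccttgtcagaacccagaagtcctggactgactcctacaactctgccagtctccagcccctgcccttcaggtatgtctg
Nqo1 (chr19:52220218-52220517, minus strand): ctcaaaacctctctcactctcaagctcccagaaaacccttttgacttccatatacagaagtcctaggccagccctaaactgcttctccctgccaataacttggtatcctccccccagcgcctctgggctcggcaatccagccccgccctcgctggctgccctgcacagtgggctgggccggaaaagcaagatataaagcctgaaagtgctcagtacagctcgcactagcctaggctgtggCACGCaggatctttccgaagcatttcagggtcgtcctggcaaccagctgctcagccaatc
Ahrr (chr1:30821969-30822268, plus strand): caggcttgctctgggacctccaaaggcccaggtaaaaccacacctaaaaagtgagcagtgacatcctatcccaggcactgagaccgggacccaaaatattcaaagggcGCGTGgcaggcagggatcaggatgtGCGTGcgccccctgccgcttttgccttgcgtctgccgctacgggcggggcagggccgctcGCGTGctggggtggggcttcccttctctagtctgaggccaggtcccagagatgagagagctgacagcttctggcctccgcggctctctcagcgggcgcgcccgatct
Cyp1b1 (chr6:21094315-21094614, plus strand): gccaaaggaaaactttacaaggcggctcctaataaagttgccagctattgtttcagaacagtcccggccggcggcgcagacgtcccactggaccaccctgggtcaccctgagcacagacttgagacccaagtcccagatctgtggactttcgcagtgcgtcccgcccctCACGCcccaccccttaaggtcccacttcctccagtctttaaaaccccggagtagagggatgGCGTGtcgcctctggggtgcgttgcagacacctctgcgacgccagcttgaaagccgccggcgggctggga
The core was present in 5 of the 7 windows, and it is present in 29.7% of 33469 rat promoters of the same length. Ahrr held 3 copies, the nearest 57 bases before the start. Cyp1b1 held 2 copies, at 81 and 20 bases before the start, and Nqo1 held 1, at 10 bases before the start. Arnt and Tiparp held 1 copy each, while Ahr and Cyp1a2 held 0 in this window. The longer form TNGCGTG, which contains the core, was present in Ahrr and Cyp1b1 and in 4.89% of all promoters. The antioxidant response element core, TGACNNNGC on either strand, was present among the 7 only in Arnt, with 2 copies, and in 12.1% of all promoters. The Cyp1a2 window was 46.3% G and C, against 56.3% to 74.7% in the other 6 windows.

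Per gene length, in TPM (reads per base of exon, scaled to 1e6 per library), the order of the 8 genes differed with the HCB label. In HCB-labelled libraries Cyp1a2 had the highest level, 677 ± 128 TPM, followed by Nqo1 at 54.0 ± 20.8 TPM, Ahr at 35.8 ± 9.55 TPM and Arnt at 32.3 ± 8.15 TPM (SD, n = 4 each). In unexposed libraries Ahr was highest at 56.7 ± 7.67 TPM, followed by Cyp1a2 at 38.5 ± 15.3 TPM, Arnt at 30.8 ± 5.63 TPM and Tiparp at 15.5 ± 4.11 TPM, with Nqo1 at 12.7 ± 2.90 TPM (SD, n = 4 each). The ranges of Nqo1, Ahr and Arnt overlapped in HCB-labelled libraries, as did those of Ahr and Cyp1a2, Cyp1a2 and Arnt, and Tiparp and Nqo1 in unexposed ones. Tiparp had 10.8 ± 1.09 TPM in HCB-labelled libraries. The other CYP1 genes were scarce, with Cyp1a1 at 1.39 ± 0.769 TPM and Cyp1b1 at 0.0528 ± 0.0675 TPM in HCB-labelled libraries, against 4.38 ± 1.95 TPM and 0.253 ± 0.185 TPM in unexposed ones. Ahrr had the lowest mean in both sets, at 0.0110 ± 0.0221 TPM in HCB-labelled libraries and 0.0436 ± 0.0453 TPM in unexposed ones. TPM does not use the normalised library size behind CPM, so differences by HCB label depend on the scale. In TPM the log2 ratio of mean levels, HCB-labelled over unexposed, was −0.66 for Ahr, 0.07 for Arnt, −0.52 for Tiparp and 4.14 for Cyp1a2. The edgeR log2 changes for the average effect of HCB were −0.11, 0.63, 0.06 and 4.65.

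**Figure D2:**
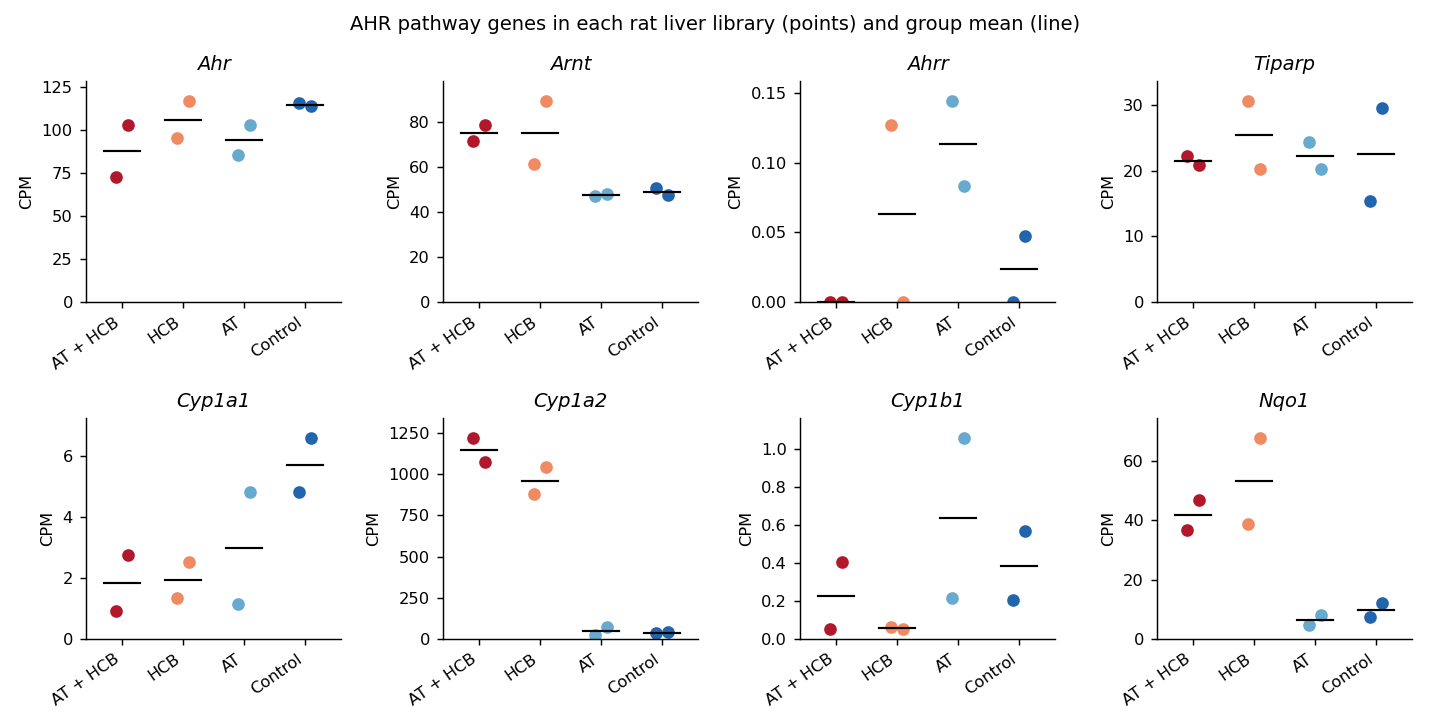
CPM of each of the 8 genes (axes from 0) in every library, as points, with the group mean as a line; AT is atorvastatin. Cyp1a2 lies at 879 CPM or above in the 4 HCB-labelled libraries and at 69.1 CPM or below in the others, while Cyp1a1 is highest in Control.

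Ahr, the receptor itself (chromosome 6, 52234089 to 52271568, minus strand, mRatBN7.2), did not pass the test in any comparison. It had 72.7 and 103 CPM in Atorvastatin plus HCB, 95.6 and 117 CPM in HCB, 85.7 and 103 CPM in Atorvastatin, and 116 and 114 CPM in Control. Every pair of neighbouring groups overlapped in the order Control, HCB, Atorvastatin, Atorvastatin plus HCB. The log2 change was −0.11 ± 0.25 (SE) in HCB against control (edgeR adjusted p = 0.770), with a 95% interval of −0.67 to 0.44, and −0.10 ± 0.25 in Atorvastatin plus HCB against atorvastatin (edgeR adjusted p = 0.790).

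Arnt, the partner that AHR needs on DNA (chromosome 2, 182997736 to 183056580, plus strand), was higher in the average effect of HCB, a call that depended on how libraries were scaled. It had 71.5 and 78.8 CPM in Atorvastatin plus HCB, 61.3 and 89.4 CPM in HCB, 47.4 and 48.3 CPM in Atorvastatin, and 50.8 and 47.5 CPM in Control. All 4 HCB-labelled libraries lay above all 4 unexposed ones. In the average effect of HCB, which is the mean of both HCB comparisons over 4 libraries against 4, the log2 change was 0.63 ± 0.17 (edgeR adjusted p = 0.0100), or 1.55-fold. Neither comparison alone passed, with 0.62 ± 0.24 in HCB against control (edgeR adjusted p = 0.0762) and 0.65 ± 0.24 in Atorvastatin plus HCB against atorvastatin (edgeR adjusted p = 0.0621).

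The levels of Ahr and Arnt depend on how libraries are scaled. The normalisation factors were 0.777 to 0.891 in HCB-labelled libraries and 1.01 to 1.42 in unexposed ones. With total reads in place of these factors the median log2 change of all genes tested was −0.64 for the average effect of HCB, against −0.11 with them. On that scale the log2 change for Arnt was 0.11 (edgeR adjusted p = 0.687, against a range of 0.00225 to 0.687 over its 16 alternatives), and Ahr was lower by a log2 change of −0.62 (edgeR adjusted p = 0.0248, range 0.0248 to 0.973). Without Control replicate 1 and Atorvastatin replicate 1, the change of Arnt was 0.65 and did not pass (edgeR adjusted p = 0.0692). The ratio of Ahr to Arnt within a library does not depend on the scaling. In TPM it was 0.877 and 1.13 in Atorvastatin plus HCB, 1.35 and 1.13 in HCB, 1.56 and 1.84 in Atorvastatin, and 1.96 and 2.08 in Control. The ratio was lower in each HCB-labelled library than in any unexposed one, a pattern noticed after the values were seen.

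**Figure D3:**
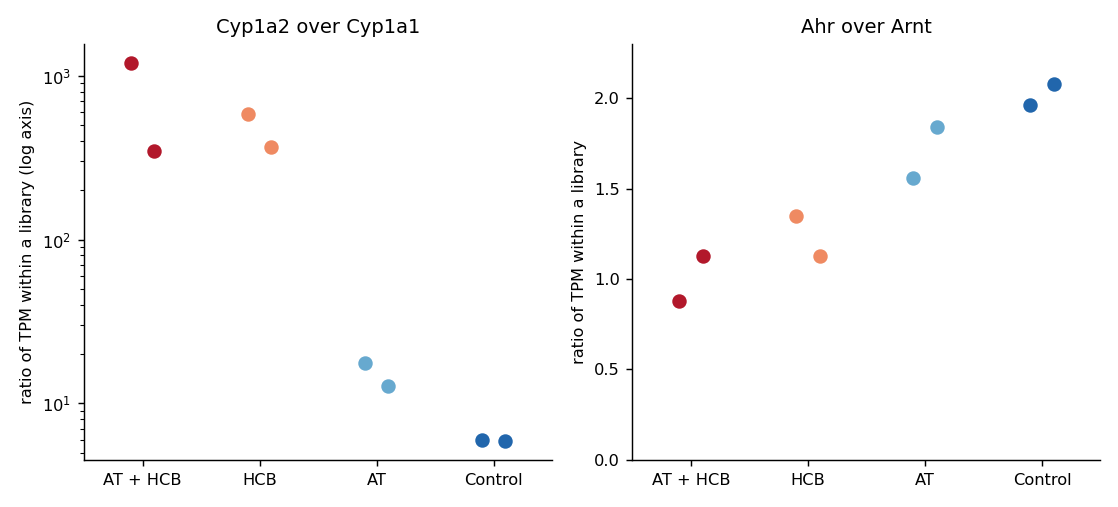
Ratios of TPM within each library for Cyp1a2 over Cyp1a1 (left, log axis) and Ahr over Arnt (right, axis from 0); AT is atorvastatin. Cyp1a2 over Cyp1a1 is 347 or more in HCB-labelled libraries and 17.7 or less in unexposed ones, and Ahr over Arnt is at most 1.35 in HCB-labelled libraries and at least 1.56 in unexposed ones.

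Around the receptor, 4 of 16 genes of the AHR complex and its partners rose in the average effect of HCB, 2 fell and 10 did not pass (edgeR), where 21.3% of all genes rose and 25.3% fell. The share that rose is near that of all genes. The list had a median log2 change of 0.05 against −0.11 over all genes tested. With total reads as the scale 3 rose and 6 fell, and without Control replicate 1 and Atorvastatin replicate 1, the libraries with most reads outside exons, 3 rose and 1 fell. With 1 library left out 3 to 6 genes rose and 1 to 3 fell, with 6 and 3 without HCB replicate 2. The count that fell was 1 when Atorvastatin plus HCB replicate 1 or 2, Atorvastatin replicate 2 or Control replicate 1 was the library left out, and also with halved counts or a filter of 1 CPM in 2 libraries. With halved counts or that filter only 15 of the 16 genes were tested. Both cytosolic HSP90 genes, which hold AHR in the cytoplasm, were among the genes that rose. Hsp90aa1, an HSP90 chaperone, had 324 and 393 CPM in Atorvastatin plus HCB, 286 and 422 CPM in HCB, 77.3 and 129.6 CPM in Atorvastatin, and 83.8 and 141 CPM in Control, with no overlap by HCB label. Its log2 change was 1.72 ± 0.26 (edgeR adjusted p = 0.000353), and that of Hsp90ab1, the other cytosolic HSP90 gene, was 1.47 ± 0.22 (edgeR adjusted p = 0.000396). Hsp90aa1 was named for its small p in this comparison, so its lack of overlap is no further evidence. Ptges3 also rose, by 0.97 ± 0.20, and was named after its values were seen. Src fell, with 6.55 ± 2.35 CPM in HCB-labelled libraries against 19.6 ± 1.71 CPM in unexposed ones (SD, n = 4 each) and a log2 change of −1.60 ± 0.25 (edgeR adjusted p = 0.000528). Arnt2, a paralogue of Arnt best known from the nervous system, was the other gene that fell. Its symbol had 2 rows, and the row with most reads held 8 in the 4 HCB-labelled libraries against 63 in the unexposed ones. Arnt2 was also named after its values were seen.

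Neither repressor gave a difference that passed. Ahrr (chromosome 1, 28993634 to 29088673, plus strand) had 0 and 0 reads in Atorvastatin plus HCB, 4 and 0 in HCB, 6 and 4 in Atorvastatin, and 0 and 2 in Control. In no group but Atorvastatin did the sum exceed the floor of 6 reads a group that a count of 0 allows, which is 0.0711 CPM in Atorvastatin plus HCB, so no difference between groups was detectable at this depth. Tiparp (chromosome 2, 149753682 to 149780327, plus strand) had 22.2 and 20.8 CPM in Atorvastatin plus HCB, 30.6 and 20.2 CPM in HCB, 24.3 and 20.3 CPM in Atorvastatin, and 15.4 and 29.6 CPM in Control. The lowest library was Control replicate 1 and the highest HCB replicate 1, and neighbouring groups overlapped. The log2 change was 0.06 ± 0.23 in the average effect of HCB (edgeR adjusted p = 0.840), with a 95% interval of −0.44 to 0.56, and its sign changed with total reads as the scale (−0.45).

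Cyp1a2, the CYP1 enzyme of hepatocytes (chromosome 8, 58075367 to 58082312, minus strand), was far higher with the HCB label. It had 1222 and 1075 CPM in Atorvastatin plus HCB, 879 and 1045 CPM in HCB, 22.9 and 69.1 CPM in Atorvastatin, and 32.3 and 43.7 CPM in Control. The lowest HCB-labelled library was above the highest unexposed one. The log2 change was 4.66 ± 0.51 in HCB against control (edgeR adjusted p = 0.000130) and 4.64 ± 0.51 in Atorvastatin plus HCB against atorvastatin (edgeR adjusted p = 0.000135). Averaged, this was a 25.2-fold difference with a 95% interval of 14.5 to 43.7. The call and its direction held in all 16 alternatives of the average effect, with log2 changes of 4.18 to 5.16. Of the libraries labelled Atorvastatin, replicate 2 held the higher level. The log2 change in Atorvastatin plus HCB against atorvastatin was 5.66 without it and 4.06 without replicate 1, and it passed in both cases.

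Cyp1a1, its neighbour and the gene most often used as a mark of AHR activity (chromosome 8, 58096077 to 58102125, plus strand), did not follow Cyp1a2. It had 0.902 and 2.74 CPM in Atorvastatin plus HCB, 1.33 and 2.51 CPM in HCB, 1.15 and 4.82 CPM in Atorvastatin, and 4.80 and 6.58 CPM in Control, from 36 to 278 reads per library. Both HCB libraries lay below both Control libraries, while Atorvastatin plus HCB and Atorvastatin overlapped. The log2 change was −1.56 ± 0.68 in HCB against control (edgeR adjusted p = 0.113) and −0.71 ± 0.67 in Atorvastatin plus HCB against atorvastatin (edgeR adjusted p = 0.451). The HCB against control value passed in 6 of 17 alternatives, with adjusted p from 0.00306 to 0.43 in edgeR or DESeq2. The change in Atorvastatin plus HCB against atorvastatin was 0.68 without Atorvastatin replicate 2. In the average effect of HCB the log2 change was −1.14 ± 0.48 and did not pass (edgeR adjusted p = 0.0718), but it passed in 7 of 16 alternatives, among them DESeq2 (adjusted p = 0.0337), and its adjusted p ranged from 0.00121 to 0.412 over them. No alternative gave a higher Cyp1a1 level in HCB-labelled libraries for the average effect or for HCB against control.

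Cyp1a1 and Cyp1a2 lie head to head, with 13764 bases between their starts and 0 annotated genes between them. Within a library the ratio of Cyp1a2 to Cyp1a1 in TPM was 1201 and 347 in Atorvastatin plus HCB, 586 and 369 in HCB, 17.7 and 12.7 in Atorvastatin, and 5.96 and 5.88 in Control. The ratio was higher in each HCB-labelled library than in any unexposed one. Cyp1a1 made up 0.0832% to 0.287% of the TPM of the 3 CYP1 genes in HCB-labelled libraries, against 5.34% to 14.4% in unexposed ones. Of the tested genes beside the pair, Csk, a kinase that inhibits SRC, had a log2 change of 0.26 ± 0.22 in HCB against control (edgeR adjusted p = 0.401) and Edc3, an mRNA decapping factor on the Cyp1a1 side, fell by a log2 change of −1.22 ± 0.23 (edgeR adjusted p = 0.00349). These neighbours were chosen for their place, after values were seen.

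Cyp1b1, the CYP1 enzyme known mainly from tissues other than hepatocytes (chromosome 6, 15342344 to 15350917, plus strand), was at the edge of detection. It had 2 and 18 reads in Atorvastatin plus HCB, 2 and 2 in HCB, 9 and 51 in Atorvastatin, and 8 and 24 in Control. Both HCB libraries were below both Control libraries, and the Atorvastatin plus HCB and Atorvastatin groups overlapped. The log2 change was −2.67 ± 1.29 in HCB against control (edgeR adjusted p = 0.149) and −2.07 ± 0.85 in the average effect (edgeR adjusted p = 0.0651), which passed in 7 of 15 alternatives (adjusted p from 0.0255 to 0.3 in edgeR or DESeq2). Counting used no strand, and an antisense gene overlaps Cyp1b1. That gene had 0 reads in every library. This does not settle its level, since a read within exons of both genes may be assigned to neither. The neutrophil list summed to 0.401 to 3.17 CPM in HCB-labelled libraries and 129 to 218 CPM in unexposed ones. Of 6 stellate cell and fibroblast genes 4 were lower with the HCB label (edgeR, average effect), where 25.3% of all genes were. Their list summed to 409.5 to 573 CPM in HCB-labelled libraries. It summed to 622 CPM in Atorvastatin replicate 1, 638 and 677 CPM in Control, and 2842 CPM in Atorvastatin replicate 2. The last is also the library with most Cyp1b1 reads. The part of neutrophils, stellate cells and fibroblasts in the levels of Cyp1a1 and Cyp1b1 was not tested.

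Nqo1, the quinone reductase that both AHR and the antioxidant factor NRF2 are known to induce (chromosome 19, 35295573 to 35310557, minus strand), was higher with the HCB label. It had 36.8 and 47.0 CPM in Atorvastatin plus HCB, 38.7 and 67.9 CPM in HCB, 4.53 and 8.00 CPM in Atorvastatin, and 7.46 and 12.1 CPM in Control. The HCB-labelled and unexposed libraries did not overlap. The log2 change was 2.45 ± 0.38 in HCB against control (edgeR adjusted p = 0.000996) and 2.74 ± 0.38 in Atorvastatin plus HCB against atorvastatin (edgeR adjusted p = 0.000578), and the average was 6.03-fold with a 95% interval of 4.01 to 9.08. The call held in all 16 alternatives of the average effect, with log2 changes of 2.12 to 2.83.

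In HCB against control 2 of the 7 genes tested passed, where 26.9% of all genes passed. In Atorvastatin plus HCB against atorvastatin 2 of 7 passed, where 27.6% of all genes did. These were Cyp1a2 and Nqo1 in both comparisons, each with its own controls. In the average effect of HCB 3 of 7 passed, all higher, where 46.6% of all genes passed, 21.3% higher and 25.3% lower. Taken over both directions together, the shares that passed are near those of all genes, so these counts are no result about the 7 genes. The split by direction among so few genes was not tested. Of all genes called in the average effect 45.7% were higher, and 17.6% were with total reads as the scale. The median log2 change of the 7 was 0.18 in HCB against control and −0.05 in Atorvastatin plus HCB against atorvastatin, against −0.09 and −0.11 over all genes.

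**Figure D4:**
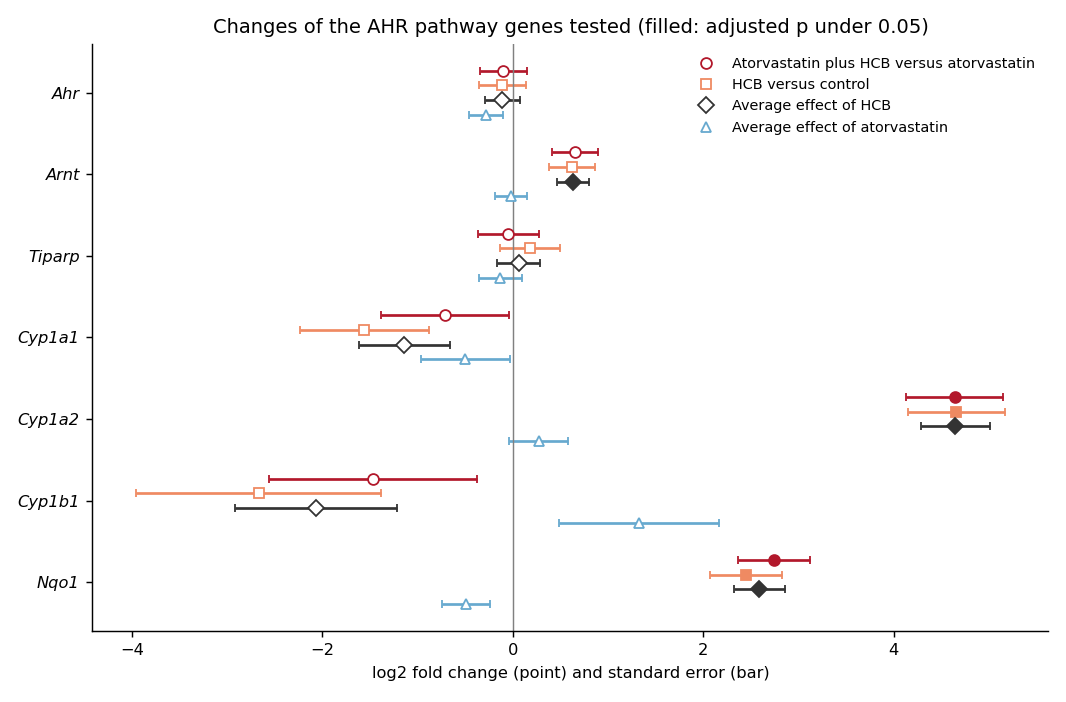
Log2 fold changes of the 7 genes tested (points) with standard errors (bars) in both HCB comparisons, the average effect of HCB and the average effect of atorvastatin; filled points passed the test. Cyp1a2 and Nqo1 are filled in both HCB comparisons, Arnt is filled in the average alone, and no atorvastatin point is filled.

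Of 15 other target genes of AHR listed for rodent liver, 12 were found and 11 were tested. In the average effect of HCB 7 rose, 1 fell and 3 did not pass (edgeR), where 21.3% of all genes rose and 25.3% fell. The list had a median log2 change of 1.32 against −0.11 over all genes. Without Control replicate 1 and Atorvastatin replicate 1 the counts were also 7 and 1, and with total reads as the scale 7 and 2. Gsta5, a glutathione transferase, had 239.7 and 449 CPM in Atorvastatin plus HCB, 585 and 333 CPM in HCB, 13.1 and 12.0 CPM in Atorvastatin, and 9.75 and 21.9 CPM in Control, a log2 change of 4.82 ± 0.35 (edgeR adjusted p = 2.82e-06). Genes of this family are near identical and share reads, so the value is uncertain. Xdh, which makes uric acid, averaged 310.4 ± 48.8 CPM in HCB-labelled libraries and 39.7 ± 10.1 CPM in unexposed ones (SD, n = 4 each), a log2 change of 2.97 ± 0.23 (edgeR adjusted p = 4.38e-06). Selenbp1, a selenium-binding protein, averaged 184 ± 9.45 CPM in HCB-labelled libraries and 45.3 ± 8.92 CPM in unexposed ones, a log2 change of 2.03 ± 0.19. For each of these genes all HCB-labelled libraries lay above all unexposed ones. They were named for the smallest p of the list in this comparison, so that separation is no further evidence. The gene that fell was Slc7a5, an amino acid transporter, with a log2 change of −1.95 ± 0.37, named after its value was seen. Aldh3a1, an aldehyde dehydrogenase gene, was found but not tested, with 10 reads in all in HCB-labelled libraries against 6 in unexposed ones. This gene was also named after its values were seen.

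Of 13 enzymes that form or remove tryptophan-derived ligands of AHR, 12 were tested, and in the average effect of HCB 10 rose, 1 fell and 1 did not pass (edgeR), where 21.3% of all genes rose and 25.3% fell. The list had a median log2 change of 1.44, against −0.11 over all genes. Tdo2, which opens the ring of tryptophan and is typical of adult hepatocytes, had 756 and 623 CPM in Atorvastatin plus HCB, 1617 and 855 CPM in HCB, 14.7 and 16.4 CPM in Atorvastatin, and 13.8 and 19.7 CPM in Control. Its log2 change of 5.84 ± 0.31 (edgeR adjusted p = 2.34e-07) came with no overlap by HCB label. Tdo2 was named for its small p in this comparison, so this lack of overlap is no further evidence. Ddc, which decarboxylates aromatic amino acids, averaged 76.6 ± 14.1 CPM in HCB-labelled libraries and 19.1 ± 2.51 CPM in unexposed ones (SD, n = 4 each), a log2 change of 2.01 ± 0.19. Maob, a monoamine oxidase, averaged 191 ± 19.1 CPM in HCB-labelled libraries and 61.0 ± 12.2 CPM in unexposed ones, a log2 change of 1.65 ± 0.19. Kyat1, a kynurenine aminotransferase and the gene that fell, had 8 reads in all in HCB-labelled libraries against 54 in unexposed ones. It was named after its values were seen. Fewer genes of the list were tested in some alternatives, with 11 for halved counts and 10 for a filter of 1 CPM in 2 libraries. No gene of the list was lower in 10 of 16 alternatives. Without Control replicate 1 and Atorvastatin replicate 1, 8 genes rose.

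Of 10 electron donors of the CYP1 enzymes and partners of NRF2, 7 rose in the average effect of HCB, 1 fell and 2 did not pass (edgeR), where 21.3% of all genes rose and 25.3% fell. The list had a median log2 change of 1.27, against −0.11 over all genes, and 6 rose and 1 fell without Control replicate 1 and Atorvastatin replicate 1. Gclm, a subunit of the enzyme for glutathione synthesis, averaged 213 ± 61.1 CPM in HCB-labelled libraries and 58.9 ± 5.02 CPM in unexposed ones (SD, n = 4 each), a log2 change of 1.84 ± 0.22 (edgeR adjusted p = 8.30e-05). Txnrd1, a thioredoxin reductase, averaged 99.6 ± 11.1 CPM in HCB-labelled libraries and 41.6 ± 2.29 CPM in unexposed ones, a log2 change of 1.26 ± 0.16. Hmox1, heme oxygenase and also an NRF2 target, fell, with 29.0 ± 4.67 CPM in HCB-labelled libraries against 107 ± 15.8 CPM in unexposed ones, a log2 change of −1.88 ± 0.19 (edgeR adjusted p = 2.31e-05). Hmox1 is known to be abundant in macrophages that clear red cells, and the macrophage list summed to 244 to 407 CPM in HCB-labelled libraries against 207 to 356 CPM in unexposed ones. Within that list Clec4f, a receptor of liver macrophages, rose by a log2 change of 1.34 ± 0.26, Marco, a scavenger receptor, fell by a log2 change of −1.48 ± 0.35, and 4 genes did not pass. The erythroid list summed to 285 to 1284 CPM in HCB-labelled libraries against 1852 to 4617 CPM in unexposed ones. The part of these cells in the level of Hmox1 was not tested.

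**Figure D5:**
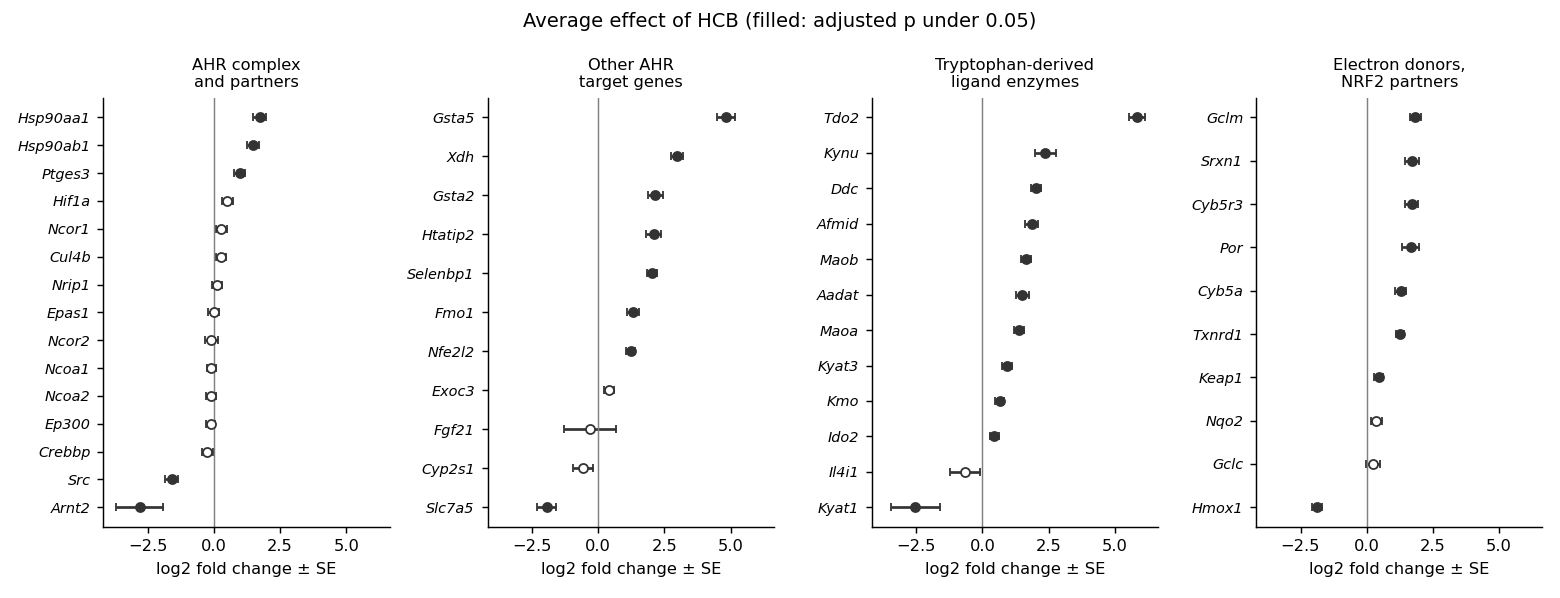
Log2 fold changes (points) and standard errors (bars) of genes tested in 4 pathway lists for the average effect of HCB, with 1 gene of the AHR complex list not shown; filled points passed the test. Gsta5 and Tdo2, with log2 changes of 4.82 and 5.84, lie farthest to the right, and Hmox1 and Src are filled on the left.

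Cyp1a2 is best known from hepatocytes around the central vein, and 6 of 8 genes of such pericentral hepatocytes rose in the average effect of HCB, while 1 fell and 1 did not pass (edgeR), where 21.3% of all genes rose and 25.3% fell. Slc1a2, a glutamate transporter, averaged 31.3 ± 10.7 CPM in HCB-labelled libraries against 0.656 ± 0.180 CPM in unexposed ones, and Oat, which handles ornithine, averaged 415 ± 272 CPM in HCB-labelled libraries against 19.4 ± 7.60 CPM in unexposed ones (SD, n = 4 each). Axin2 and Lgr5 of the same list, named after their values were seen, had lower means with the HCB label. Axin2 averaged 15.3 ± 6.12 CPM in HCB-labelled libraries against 21.9 ± 8.43 CPM in unexposed ones. For Lgr5 these means were 1.86 ± 0.534 CPM and 4.20 ± 1.11 CPM. The pericentral list summed to 4079 to 6032 CPM in HCB-labelled libraries and 1615 to 2588 CPM in unexposed ones. Cyp2e1 gave most of that sum, with means of 3090.1 ± 629 CPM and 1389 ± 291 CPM. The part of the pericentral list in the level of Cyp1a2 was not tested.

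None of the 7 genes passed the test in a comparison of atorvastatin. In Atorvastatin against control 0% of all genes passed in edgeR, with 181 genes at an unadjusted p under 0.05 and 3 passing in DESeq2. In Atorvastatin plus HCB against HCB, 0% passed in edgeR, with 857 at an unadjusted p under 0.05 and 47 passing in DESeq2. The average effect of atorvastatin had 0% passing in edgeR, 601 genes at an unadjusted p under 0.05 and 12 passing in DESeq2. For Cyp1a2 the log2 change was 0.28 ± 0.44 in Atorvastatin against control and 0.26 ± 0.44 in Atorvastatin plus HCB against HCB, and for the average the 95% interval was −0.42 to 0.95. Both Atorvastatin plus HCB libraries lay above both HCB libraries in Cyp1a2, while the Atorvastatin and Control libraries overlapped. For Nqo1 these changes were −0.64 ± 0.36 and −0.35 ± 0.36, with an interval of −1.05 to 0.07 for the average. Cyp1a1 had a log2 change of −0.93 ± 0.66 in Atorvastatin against control, with a 95% interval of −2.38 to 0.53, and its libraries labelled Atorvastatin were far apart. Leaving out Atorvastatin replicate 2 turned the change of Cyp1a2 in Atorvastatin against control to −0.74, and leaving out replicate 1 gave 0.86.

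The interaction asks whether the HCB difference differed between rats with and without atorvastatin, and none of the 7 genes passed. It had 0% of all genes passing in edgeR, 391 at an unadjusted p under 0.05 and 5 passing in DESeq2. For Cyp1a2 the interaction was −0.02 ± 0.62 on the log2 scale, with a 95% interval of −1.39 to 1.35, and for Nqo1 it was 0.29 ± 0.51, with an interval of −0.82 to 1.41. For Cyp1a1 it was 0.85 ± 0.95, with an interval of −1.23 to 2.94.

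The genes whose pattern over the 8 libraries was nearest to each of the 8 genes were sought among 12439 genes (12440 for Ahrr and Cyp1b1) with a symbol and a mean of at least 1 CPM, by the root mean square difference of centred log2 CPM. Nearest to Cyp1a2 were Cyp3a62, another cytochrome P450 gene, at 0.245, Mab21l3 at 0.250 and the carboxylesterase gene Ces2c at 0.254. Nearest to Nqo1 were Serpina1 and Dhx58, each at 0.320, and Cyp39a1, an oxysterol hydroxylase gene, at 0.326. Arnt had the closest match of all, Xpnpep3 at 0.0391, followed by P2ry1 at 0.0918 and Clcn7 at 0.0955. Ahr was followed by Get1 at 0.135 and by Pdzk1 and Gpr19, each at 0.136, and Tiparp by Ten1, Hmgb3 and Slc7a6os at 0.122 to 0.139. Nearest to Cyp1a1 were Prokr1 at 0.330, Acsbg1 at 0.471 and Lgals3 at 0.498, and nearest to Cyp1b1 were Nr4a1, Acta2 and Gadl1 at 0.458 to 0.530. For Ahrr the nearest genes were Psmc3ip, Gstm5 and Tedc2 at 0.424 to 0.468, over a total of 16 reads.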

How the data were processed

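RNA of 8 rat livers was sequenced as pairs of reads. The submitters' processing notes name fastp 0.23.4, STAR 2.7.10b, R 4.3.2 and DESeq2 1.42.1. Per the file headers, the authors ran featureCounts 2.0.6 with the Ensembl 111 annotation of mRatBN7.2, with no option for strand or multimapping reads, and deposited raw read counts per gene. Reads of all classes add up to 2.04 times the number stated, so mates appear to be counted singly. The exon length of each gene in the deposited count table was used here to compute TPM.

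The deposited counts were fitted here with edgeR 4.0.16 (R 4.3.3, limma 3.58.1) as a model of 4 group means, with TMM factors, the filterByExpr filter and a robust quasi-likelihood test. The model had 4 residual degrees of freedom and a common biological coefficient of variation of 0.295. Adjusted p is that of Benjamini and Hochberg over all 16591 genes, with a threshold of 0.05. Log2 changes are given ± SE and levels ± SD, and log2 CPM used a prior count of 2. A floor of 6 reads (3 pairs) a group stood for 0, which covers counting error only. For a symbol with several rows, the row with most reads was used. Alternatives were DESeq2 1.42.0, other scalings and filters, halved counts, a replicate block and each library left out. Steps were tested on simulated counts with changes in a small set of genes. That does not test the scaling of libraries that differ as widely as these. Other software was data.table (version 1.17.8), Python 3.11.15 and matplotlib 3.10.9.

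The 8 genes, the lists and the rule for named genes were chosen with earlier results of these data known. The rule takes the 8 genes, up to 3 called genes of each list with the smallest p in the average effect of HCB, and the 3 genes of nearest pattern to each of the 8, with a text that names only some marker genes. The neighbours of Cyp1a1 and Cyp1a2 and the ratios within a library lie outside it. A gene of the AHR complex list is counted in that list but not reported here.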

Additional observations from a re-analysis of the deposited data

How the results depend on the processing

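Of 803 values of the 7 genes over 49 results, 708 kept direction and side of the threshold, 26 passed newly, 2 lost the call and 67 changed sign, all of them uncalled. Cyp1a2 and Nqo1 kept both in every alternative of both HCB comparisons and their average. Scaling by total reads and leaving out both libraries with most reads outside exons (Control replicate 1 and Atorvastatin replicate 1) were added after seeing the data. Causes were not tested. The average effect of HCB had 5 of the 7 genes called with DESeq2, the replicate block and total reads. In these settings 8040, 7548 and 8497 of all 16591 genes were called, against 7728 in the main fit. With no filter Ahrr was also tested, and 5 of 8 genes were called, where 8265 of 22537 were. With total reads the 5 included Ahr, which was lower, and did not include Arnt. Without both libraries, 2108 genes were called in HCB against control, 2147 in Atorvastatin plus HCB against atorvastatin and 4643 in the average, against 4466, 4571 and 7728. With DESeq2 and with no filter, 3 and 76 genes were called in Atorvastatin against control, 47 and 179 in Atorvastatin plus HCB against HCB, 12 and 140 in the average effect of atorvastatin, and 5 and 70 in the interaction. With total reads, log2 changes turned for Tiparp to −0.21 in HCB against control and −0.45 in the average effect of HCB, for Arnt and Tiparp to 0.08 and 0.19 in Atorvastatin against control, and for Ahr and Arnt to −0.16 each in the interaction. Without both libraries, Tiparp was −0.22 in HCB against control, 0.08 in Atorvastatin plus HCB against atorvastatin and −0.07 in the average effect of HCB, Arnt was 0.01 in Atorvastatin against control, and Ahr, Arnt and Tiparp were −0.13, −0.03 and 0.3 in the interaction. Arnt in Atorvastatin plus HCB against HCB was 0 with no filter and 0.01 with the replicate block. In the interaction Ahr was −0.01 with a filter of 1 CPM in 2 libraries and 0 with halved counts, and Cyp1a2 was 0.11 with the replicate block. Same-numbered libraries correlated at −0.0509 to 0.269 in their deviations, so the numbers were not taken to pair rats, and the replicate block called 4282, 4398 and 7548 genes in HCB against control, Atorvastatin plus HCB against atorvastatin and their average.

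Leaving out a library leaves 1 in its group, assumed to vary like the others. Genes called then ranged from 2164 to 4622 in HCB against control (2595 without HCB replicate 1, 2164 without Control replicate 1), from 1902 to 4819 in Atorvastatin plus HCB against atorvastatin (1902 and 2504 without its replicates 1 and 2, 2629 without Atorvastatin replicate 1), from 0 to 33 in Atorvastatin against control, 0 to 6 in Atorvastatin plus HCB against HCB, 0 to 9 in the average effect of atorvastatin and 0 to 5 in the interaction. Uncalled log2 changes that turned ranged as follows. In HCB against control Ahr ranged from −0.27 to 0.05 and Tiparp from −0.22 to 0.75. In Atorvastatin plus HCB against atorvastatin Ahr ranged from −0.35 to 0.17, Tiparp from −0.16 to 0.09, Cyp1a1 from −1.7 to 0.68 and Cyp1b1 from −3.57 to 0.1. In the average effect of HCB Ahr ranged from −0.22 to 0.04 and Tiparp from −0.13 to 0.37. In Atorvastatin against control Arnt ranged from −0.09 to 0.01, Tiparp from −0.42 to 0.54, Cyp1a2 from −0.74 to 0.86 and Cyp1b1 from −0.84 to 1.65. In Atorvastatin plus HCB against HCB Arnt ranged from −0.24 to 0.3, Tiparp from −0.51 to 0.1, Cyp1a1 from −1.09 to 0.52, Cyp1b1 from −0.2 to 2.75 and Nqo1 from −0.69 to 0.12. In the average effect of atorvastatin Arnt ranged from −0.14 to 0.13, Tiparp from −0.33 to 0.15 and Cyp1a2 from −0.24 to 0.56. In the interaction Ahr ranged from −0.26 to 0.25, Arnt from −0.2 to 0.34, Tiparp from −0.77 to 0.18, Cyp1a1 from −0.16 to 2.24, Cyp1a2 from −0.61 to 1, Cyp1b1 from −0.92 to 2.77 and Nqo1 from −0.09 to 0.77. Depth limits Ahrr, with 0 to 6 reads per library, and Cyp1b1, with 2 to 51.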
